A study of Mus musculus with 12 samples.

Results

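The genes described here mark the blood vessels of the brain: 25 genes of endothelial cells, the cells that line vessels, and 9 of mural cells, the pericytes and smooth muscle cells wrapped around them. The list is one of gene symbols, and 34 of 34 were found among the 54532 annotated genes in each of 12 libraries of mouse hippocampal RNA. Total RNA came from 3-month-old mice in 4 groups of 3 libraries each: Atrx conditional knockout (cKO) females, control females, Atrx-cKO males and control males. ATRX is a chromatin remodeller, and the title of the series places its deletion in neurons, so the vessel cells are not the cells that the title says were deleted. The labels name neither the Cre driver, nor the deleted exons, nor the alleles that the controls carry. The design text gives 3 pairs of mice per sex, while no label ties a library to a mouse, so p-values measure the spread between these libraries.

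Brain endothelial cells are sealed by tight junctions and allow little to pass except through carriers. They take up glucose, thyroid hormone and lipids with dedicated transporters and return many drugs to the blood with efflux pumps. Pericytes, recruited by endothelial platelet-derived growth factor, support this barrier, and arterial smooth muscle sets vessel tone. In bulk RNA of a tissue, fewer cells of a type and less RNA per cell cannot be told apart, and vessel cells are a minority of the hippocampus.

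A pair of sequences from RefSeq on GRCm38.p6 is shown, since each ties a member to the way its cell type is controlled. The first is the mature miR-126a-3p, an endothelial microRNA made from an intron of Egfl7, at chr2:26591402-26591423 on the plus strand, with the seed (bases 2 to 8) in capitals. The second is the 250 bases upstream of the start of Acta2, the smooth muscle actin, which had the smallest p of the members between control males and control females, at chr19:34255374-34255623 on the minus strand.
mmu-miR-126a-3p: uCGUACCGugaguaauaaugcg
Acta2 upstream: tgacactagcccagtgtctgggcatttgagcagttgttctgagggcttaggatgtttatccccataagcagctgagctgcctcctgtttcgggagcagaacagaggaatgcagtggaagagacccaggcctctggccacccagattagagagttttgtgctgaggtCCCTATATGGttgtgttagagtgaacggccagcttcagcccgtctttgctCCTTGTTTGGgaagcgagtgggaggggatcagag
The capitals in the Acta2 sequence mark CCCTATATGG at positions -84 to -75 and CCTTGTTTGG at positions -34 to -25 from the RefSeq start. They are the words of this sequence closest to the CArG box, the element bound by serum response factor in smooth muscle genes, allowing at most 1 C or G among the inner bases, a rule set after the sequence was read. Searched on both strands, with no overlap between them, CCCTATATGG occurred in 0.0274% and CCTTGTTTGG in 0.0578% of 32851 promoters. Under that rule a match occurred in 8.59% of all promoters and in 6 of the 26 promoters matched to 22 of the 34 members (Acta2, Egfl7, Eng, Kdr, Ocln and Slco1a4). The strict CArG consensus occurred in 1.47% of all promoters and in 0 of the 26. A match is a description of letters and no measure of binding.

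The libraries differed in depth and in background. Mapped sequence ran from 1.16 to 8.64 Gb, with group means of 2.76 ± 1.55 Gb in cKO females, 6.10 ± 2.23 Gb in control females, 6.93 ± 2.83 Gb in cKO males and 7.77 ± 0.566 Gb in control males (SD, n = 3 each). Background, taken as the median level of 1459 olfactory and vomeronasal receptor genes on the FPKM scale, was 0.305, 1.97 and 2.25 in cKO females 1 to 3 against 0.180, 0.0863 and 0.602 in control females 1 to 3. It was 0.0205, 0.286 and 0.0178 in cKO males and 0.0276, 0.0128 and 0.00664 in control males. Values are therefore given both as deposited FPKM (fragments per unit of transcript length and library size, summed per gene) and after background was subtracted and libraries were scaled. Of the 34 members, 24 passed a filter on low subtracted values and were tested among 15055 genes. The other 10, Tie1, Emcn, Eng, Vwf, Sox17, Foxq1, Abcc9, Higd1b, Notch3 and Tagln, are given by their levels.

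Atrx itself was lower in cKO libraries. It had 31.0, 36.1 and 38.2 FPKM in cKO females against 55.6, 58.8 and 63.6 FPKM in control females. It had 34.2, 32.3 and 36.5 FPKM in cKO males against 46.9, 40.2 and 42.1 FPKM in control males. The groups did not overlap in either sex (exact permutation test, two-sided, p = 0.1 in either sex alone and 0.005 over both, the smallest values this design allows).

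Vessel genes had deposited FPKM above 0 in every library. In control males, the group of lowest background, mean deposited FPKM ran from 0.330 ± 0.0659 for Foxq1 to 171 ± 19.1 for Bsg (SD, n = 3), and 14 members reached 5 or more, 14 lay from 1 to 5 and 6 lay under 1. After Bsg, which neurons and glia also use, the order was led by Rgs5 at 22.7 ± 2.76, Slco1a4 at 20.4 ± 0.871, Slco1c1 at 16.6 ± 1.78, Slc2a1 at 15.1 ± 1.22 and Itm2a at 14.6 ± 0.842 FPKM. Rgs5 and Slco1a4, Slco1c1 and Slc2a1, and Slc2a1 and Itm2a differed by less than the sum of their SDs, while Slco1a4 and Slco1c1 differed by more. As deposited, all 34 members were above 0 in all 12 libraries. After subtraction 9 members were at 0 in cKO female 2, 9 in cKO female 3 and 1 in control female 3. A deposited value above 0 therefore does not show a level over background. Levels varied within each role: among endothelial genes, Flt1 lay at 7.73 ± 0.314 and Egfl7 at 7.56 ± 0.558 FPKM, against 0.641 ± 0.0429 for Tie1, 0.689 ± 0.147 for Eng and 1.27 ± 0.545 for Vwf. Among junction genes, Ocln lay at 6.36 ± 0.245 and Cdh5 at 1.05 ± 0.145 FPKM.

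**Figure D1:**
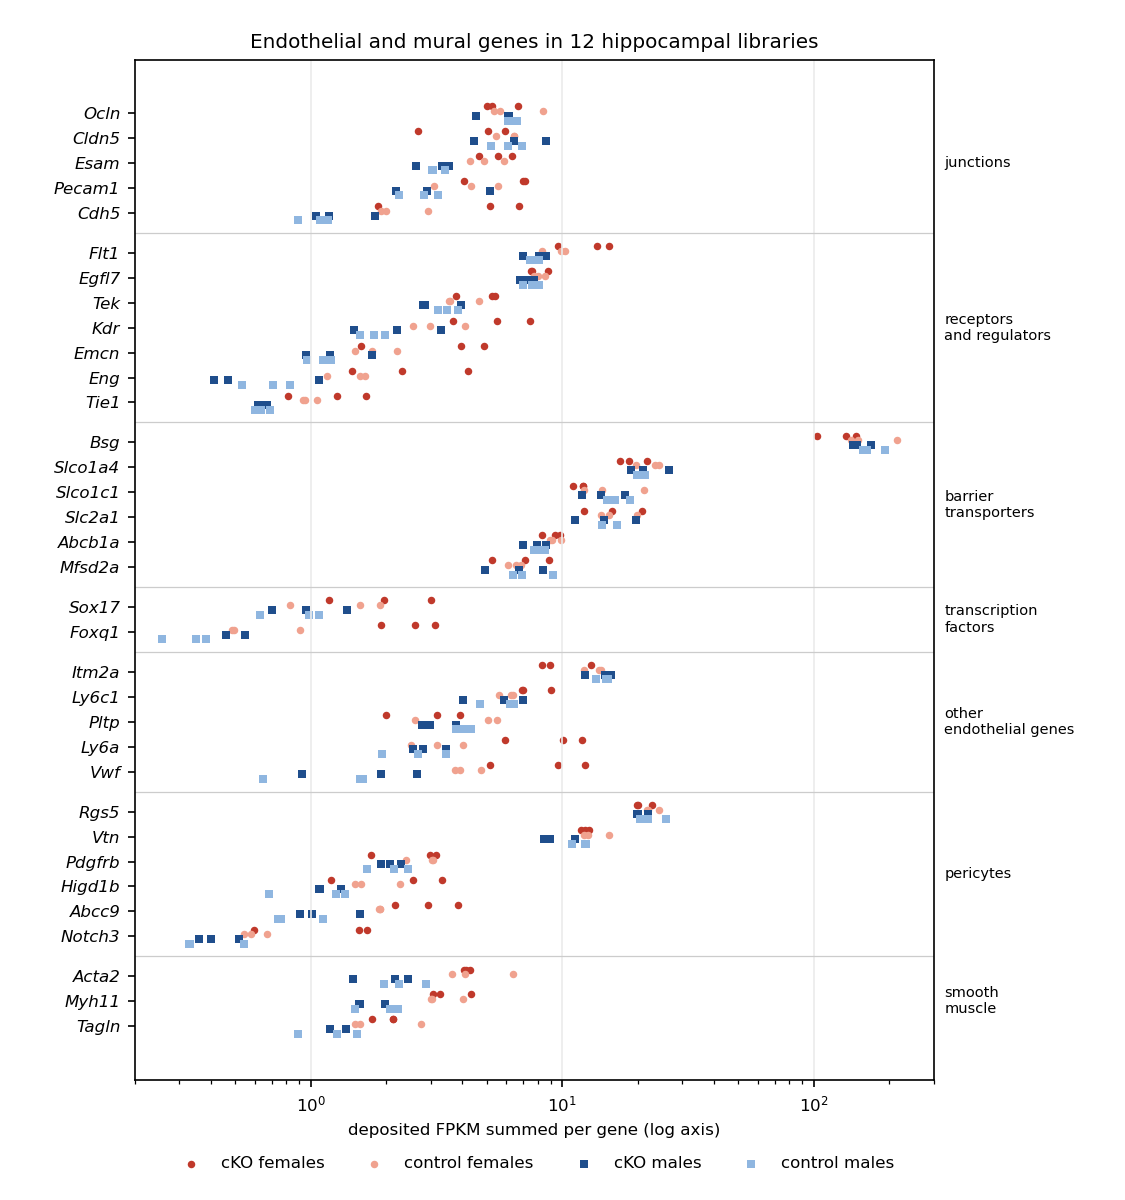
Deposited FPKM (log axis) of the 34 vessel genes in each of 12 libraries, with 1 point per library, circles for females and squares for males, dark for cKO and light for control. Many genes with low FPKM in control males have their cKO female points farthest to the right, as for Foxq1 (1.91 to 3.12 FPKM in cKO females, 0.484 to 0.904 FPKM in control females).

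No tested vessel gene passed the threshold between cKO and control libraries in either sex. Among 24 members, 0 were called in females, where 0.0731% of all genes tested were called (11 of 15055), and 0 in males, where 0.00664% were called (limma, adjusted p below 0.05). The median log2 difference of the members was -0.05 in females, against 0.02 over all genes, and -0.08 in males, against 0.03 over all genes. By sign, 9 were positive and 15 negative in females, and 4 were positive and 20 negative in males. The male tally rests on cKO male 2: without it 12 were positive and 12 negative. At an unadjusted p below 0.05 there were 4 of 24 members in females, against 29.3% of all genes tested, and 0 in males, against 2.32%. The median half-width of the 95% interval of a member was 0.437 on the log2 scale within a sex, which goes with an unadjusted p of 0.05. At the adjusted threshold, differences well beyond it also went uncalled. In females these included 1.34 for Ly6a and -1.65 for Pltp (limma, adjusted p = 0.114 and 0.118). For the mean of both sexes 0 members were called (0.0332% of all genes) and 3 had an unadjusted p below 0.05 (20.3% of all genes), and for the male effect minus the female effect 0 were called (0% of all genes). For that contrast, 940 of all genes (6.24%) and 2 members had an unadjusted p below 0.05 in limma. The counts of 0 in females, for the mean and for the contrast of the effects rest on cKO female 1, while that in males stays at 0 without it. With that library left out, 6 members were called in females (38.6% of all genes), 4 for the mean of both sexes (29.6%) and 4 for the male effect minus the female effect (19.3%).

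**Figure D2:**
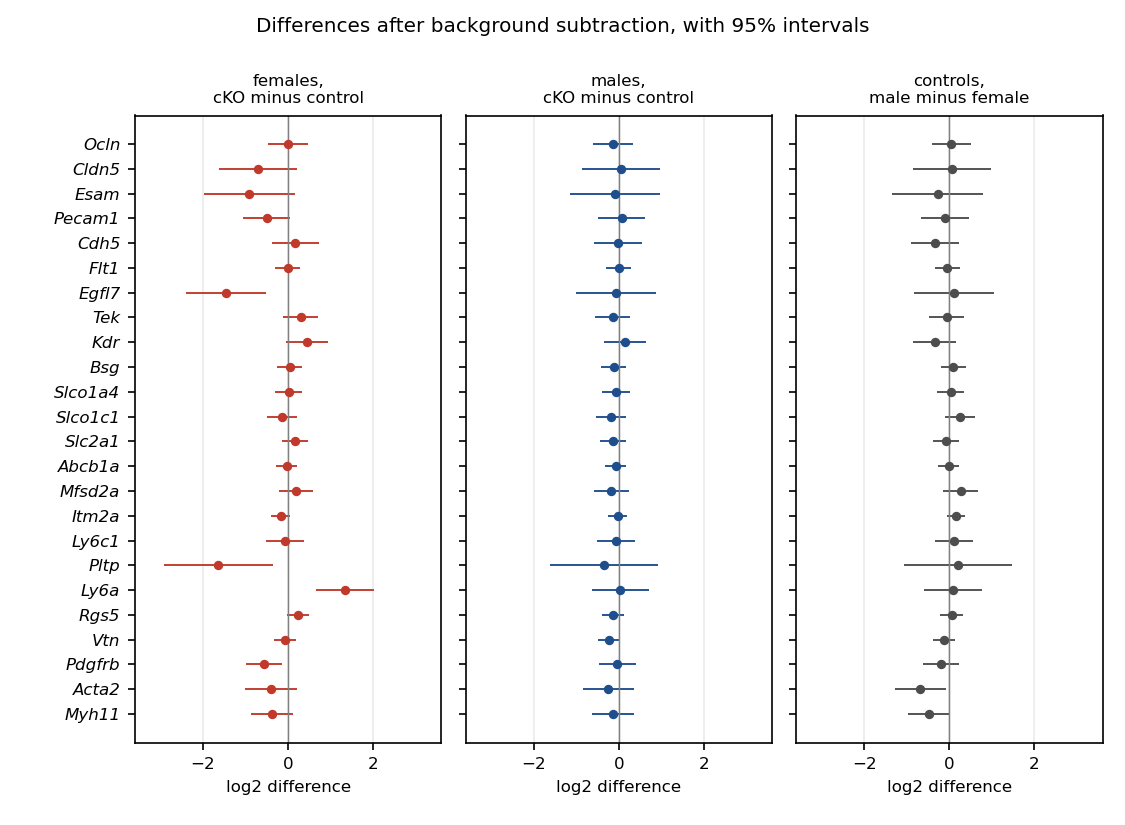
Log2 difference with its 95% interval (bars) for the 24 tested vessel genes, on subtracted and scaled values. Panels give cKO minus control in females, cKO minus control in males, and control males minus control females. The cKO minus control differences lie between -0.35 and 0.15 in males and between -1.65 (Pltp) and 1.34 (Ly6a) in females. Intervals are widest for Pltp, Esam, Egfl7 and Cldn5.

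Junction genes are described first. Cldn5, the dominant claudin of the barrier's tight junctions, had 5.93, 2.67 and 5.07 FPKM in cKO females against 6.41, 5.45 and 6.42 FPKM in control females. In males it had 6.41, 4.46 and 8.62 FPKM in cKO against 6.09, 5.20 and 6.93 FPKM in controls. The groups overlapped in both sexes, and cKO female 2, the shallowest library, was lowest of all. There, Cldn5 was covered 3.1 times per base on average, against 74.4 times in cKO male 3. On the log2 scale the difference was -0.71 ± 0.41 in females (SE, limma, adjusted p = 0.27) and 0.04 ± 0.41 in males (adjusted p = 1.0).

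Ocln, the tight junction protein occludin, had 6.68, 5.03 and 5.27 FPKM in cKO females and 5.66, 8.39 and 5.38 FPKM in control females. It had 6.15, 4.52 and 6.07 FPKM in cKO males and 6.37, 6.59 and 6.10 FPKM in control males. The log2 difference was -0.01 ± 0.21 in females and -0.14 ± 0.21 in males, with overlap between groups in both sexes. Pecam1 and Cdh5, adhesion molecules of endothelial contacts, and Esam, an adhesion molecule of their tight junctions, were higher as deposited in cKO than in control females on average. Pecam1 averaged 6.04 ± 1.71 against 4.33 ± 1.24 FPKM, Cdh5 4.58 ± 2.49 against 2.27 ± 0.563 FPKM and Esam 5.51 ± 0.828 against 5.02 ± 0.812 FPKM (SD, n = 3 each). After subtraction, Esam stood at 2.25, 0 and 1.06 in cKO females against 2.17, 1.91 and 1.73 in control females, and Pecam1 at 1.25, 0.571 and 0.518 against 1.31, 1.21 and 1.25. Their low values were those of cKO females 2 and 3, the libraries of highest background. Cdh5 stood at 0.990, 2.23 and 1.42 in cKO females against 1.39, 1.32 and 1.09 in control females, highest in cKO female 2, with a log2 difference of 0.17 ± 0.25.

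Receptors of vessel growth factors also depended on the scale. Flt1, a receptor and decoy for vascular endothelial growth factor, had 9.63, 13.8 and 15.3 FPKM in cKO females against 9.90, 8.29 and 10.3 FPKM in control females. In males it had 6.96, 8.10 and 8.59 FPKM in cKO against 7.72, 7.42 and 8.05 FPKM in controls. After subtraction it stood at 3.43, 2.73 and 3.74 in cKO females against 3.51, 3.11 and 3.32 in control females, with a log2 difference of -0.01 ± 0.13. Flt1 reads were divided mainly between a 13-exon transcript of 6292 bases (41.9% of its FPKM) and a 30-exon transcript of 6895 bases (36.3%). The first was listed at 0 in cKO female 2, against 3.53 to 5.94 FPKM in the other 11 libraries.

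Kdr, the main signalling receptor for vascular endothelial growth factor, had 3.69, 5.49 and 7.47 FPKM in cKO females against 2.97, 2.55 and 4.11 FPKM in control females. Subtracted values were 1.66, 1.96 and 2.91 in cKO females against 1.41, 1.30 and 1.59 in control females. Here the groups did not overlap, which held in this direction for 10.2% of genes tested and 2 of 24 members. Kdr differed by 0.44 ± 0.23 on the log2 scale in females (limma, adjusted p = 0.22) and 0.15 ± 0.23 in males. Tek, the receptor of the angiopoietins, differed by 0.29 ± 0.19 in females and -0.14 ± 0.19 in males (SE, log2 scale). Among untested members of this role, Tie1 (a partner of Tek), Eng (a co-receptor for transforming growth factor beta) and Emcn (a surface sialomucin) averaged 1.25, 2.66 and 3.47 FPKM in cKO females against 0.980, 1.46 and 1.82 FPKM in control females. After subtraction the same genes averaged 0.118, 0.167 and 0.301 in cKO females against 0.465, 0.545 and 0.446 in control females, so the order of the groups turned round. These cKO means include values at 0, in cKO females 2 and 3 for Tie1 and Eng and in cKO female 3 for Emcn.

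Egfl7, a secreted endothelial protein and the host of miR-126a, was even across libraries as deposited. It had 7.55, 8.81 and 7.48 FPKM in cKO females against 7.70, 8.56 and 8.01 FPKM in control females, and 7.75, 6.79 and 7.30 FPKM in cKO males against 8.11, 7.59 and 6.99 FPKM in control males. Its transcripts are many and short, and over the union of their exons the level before subtraction was 1.85, 2.02 and 1.92 in cKO females against 2.34, 2.35 and 2.10 in control females. With background near 2 in cKO females 2 and 3, subtraction left 1.41, 0.0827 and 0 in cKO females against 1.90, 1.96 and 1.46 in control females. These groups did not overlap, which held for 7.5% of genes tested and 1 of 24 members. Its difference came to -1.46 ± 0.42 in females (limma, adjusted p = 0.114) and -0.06 ± 0.42 in males. Without cKO females 2 and 3, which leaves cKO female 1 alone in its group, it was -0.25 in females. Whether background accounts for it was not tested beyond these values. Egfl7 overlaps Agpat2 in the annotation, and no source used here says how strand was handled. The precursor of the microRNA printed above was listed at 0.0849 FPKM or less in every library, which says nothing of the mature form in libraries of long RNA.

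Barrier transporters showed small differences. Bsg (basigin), a chaperone of monocarboxylate transporters, had 147, 134 and 103 FPKM in cKO females against 150, 213 and 141 FPKM in control females. It had 169, 149 and 143 FPKM in cKO males against 192, 157 and 163 FPKM in control males. Its log2 difference after subtraction and scaling was 0.04 ± 0.13 in females and -0.12 ± 0.13 in males. Slc2a1, the glucose carrier, differed by 0.17 ± 0.14 in females and -0.14 ± 0.14 in males. Mfsd2a, a carrier of lipids bearing docosahexaenoic acid, differed by 0.19 ± 0.19 and -0.18 ± 0.19, and Abcb1a, the efflux pump P-glycoprotein, by -0.04 ± 0.12 and -0.07 ± 0.12. Slco1a4, an organic anion carrier, differed by 0.01 ± 0.15 and -0.06 ± 0.15 in females and males. Over the 6 transporters the female differences ran from -0.15 to 0.19 and the male differences from -0.18 to -0.06, with 0 called in either sex. Without cKO male 2, Slco1a4 and Abcb1a were at 0.06 each in males.

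Slco1c1, a thyroxine carrier, had 12.1, 12.1 and 11.01 FPKM in cKO females against 12.2, 21.1 and 14.3 FPKM in control females. It had 17.8, 12.0 and 14.3 FPKM in cKO males against 18.6, 16.1 and 15.1 FPKM in control males. Every cKO female library was below every control female library as deposited, for which the background rate was 3.94% of genes, and Slco1c1 was the only member of which this held. After subtraction the female groups overlapped, at 6.25, 6.38 and 6.09 in cKO females against 5.40, 9.37 and 6.64 in control females, with a log2 difference of -0.15 ± 0.16.

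The transcription factors were at the lower end. Foxq1, a forkhead factor enriched in brain endothelium, had 1.91, 3.12 and 2.59 FPKM in cKO females against 0.484, 0.493 and 0.904 FPKM in control females. It had 0.548, 0.461 and 0.546 FPKM in cKO males against 0.256, 0.383 and 0.349 FPKM in control males. Every cKO library was above every control library of its sex. As deposited this held for 1.81% of all genes and 1 of 34 members, and in males alone for 8.49% of genes and the same 1 member (exact permutation test, two-sided, p = 0.1 within each sex and 0.005 over both, the smallest possible, before any adjustment for the 34 members run).

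After subtraction Foxq1 stood at 1.46, 1.73 and 0.534 in cKO females against 0.267, 0.352 and 0.293 in control females. In males it stood at 0.470, 0.165 and 0.4999 in cKO against 0.200, 0.354 and 0.312 in controls, where the groups overlapped (exact permutation test, two-sided, p = 0.1 in females, 0.6 in males and 0.035 over both). In a fit with no filter on low values its log2 difference was 1.04 in females (95% interval 0.34 to 1.74, limma, adjusted p = 0.105) and 0.14 in males. Its coverage was 1.7 to 8.1 reads per base. It overlaps the antisense gene A530084C06Rik, listed at 1.20, 2.39 and 0 FPKM in cKO females against 0, 0 and 0.683 FPKM in control females, and without known strand their reads cannot be told apart. Sox17, a factor of arterial identity, had 1.18, 3.00 and 1.95 FPKM in cKO females against 1.57, 0.824 and 1.88 FPKM in control females, and was at 0 after subtraction in cKO females 2 and 3.

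**Figure D3:**
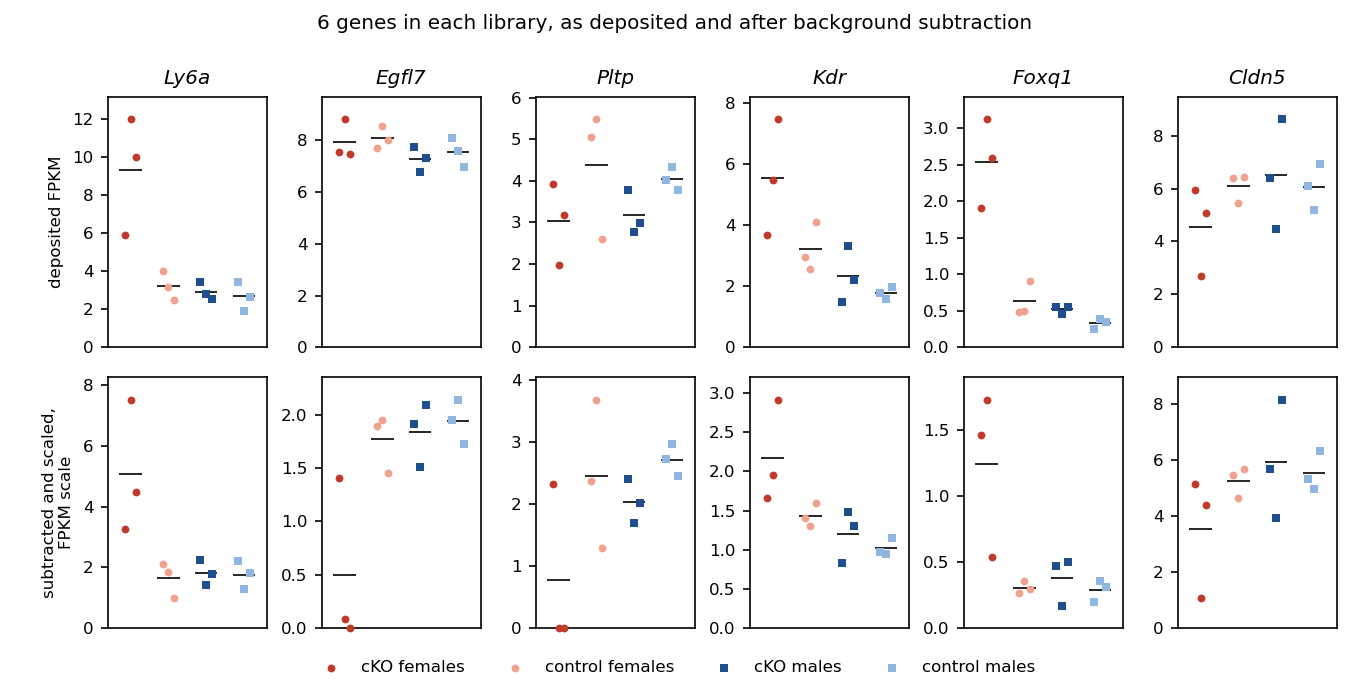
Levels of 6 vessel genes in each of 12 libraries, as deposited FPKM (upper panels) and after background subtraction and scaling (lower panels, FPKM scale), with a bar at each group mean. Ly6a stays higher in cKO females on both scales, Egfl7 is even as deposited and near 0 in cKO females 2 and 3 after subtraction, and Foxq1 loses its separation in males after subtraction.

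Among the other endothelial genes, Ly6a gave the smallest p of all members. Ly6a (Sca-1), a surface antigen of endothelium and stem cells, had 5.94, 12.0 and 10.03 FPKM in cKO females against 4.03, 3.17 and 2.51 FPKM in control females. It had 3.44, 2.80 and 2.54 FPKM in cKO males against 3.46, 1.92 and 2.66 FPKM in control males. After subtraction it stood at 3.26, 7.51 and 4.47 in cKO females against 2.12, 1.85 and 0.993 in control females, without overlap in females and with overlap in males. The female separation held in this direction for 10.2% of genes tested and 2 of 24 members. The log2 difference was 1.34 ± 0.31 in females (SE, 95% interval 0.67 to 2.02, limma, adjusted p = 0.114) and 0.04 ± 0.31 in males (adjusted p = 1.0). The male effect minus the female effect was -1.30 ± 0.43 (adjusted p = 0.586). The 2 libraries with the highest Ly6a were those with the highest background. Without them cKO female 1 was alone in its group, and the female log2 difference was 0.86. Ly6a is related to Ly6c1 and Ly6c2, and whether reads were shared between these genes was not tested. A 2-exon transcript of 336 bases held 34.7% of the FPKM of Ly6a in cKO females.

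Ly6c1, a related surface antigen of brain endothelium, had 6.92, 6.99 and 9.02 FPKM in cKO females against 6.28, 6.39 and 5.61 FPKM in control females. After subtraction its log2 difference was -0.07 ± 0.20 in females and -0.06 ± 0.20 in males. Itm2a, a membrane protein of brain endothelium, had 13.04, 8.90 and 8.32 FPKM in cKO females against 14.04, 14.2 and 12.2 FPKM in control females. It had 15.7, 12.3 and 14.8 FPKM in cKO males against 14.9, 13.6 and 15.1 FPKM in control males. Itm2a differed by -0.18 ± 0.10 on the log2 scale in females (limma, adjusted p = 0.25) and -0.03 ± 0.10 in males, with overlap in both. Itm2a lies on the X chromosome (X:107397099-107403376), as does Atrx.

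Pltp, the phospholipid transfer protein, had 3.94, 1.99 and 3.18 FPKM in cKO females against 5.05, 5.48 and 2.60 FPKM in control females. It had 3.77, 2.78 and 2.99 FPKM in cKO males against 4.02, 4.34 and 3.79 FPKM in control males. Every cKO male library was below every control male library on both scales, which held for 1.83% of genes as deposited and for 4.65% of those tested after subtraction. The log2 difference was -0.35 ± 0.58 in males (limma, adjusted p = 1.0) and -1.65 ± 0.58 in females (adjusted p = 0.118). In females subtraction left 2.32, 0 and 0 in cKO libraries against 2.38, 3.68 and 1.30 in controls, so cKO female 1 lay within the control range. Over the alternative fits the female difference ran from -3.0 to 0.02. Pltp overlaps Ctsa in the annotation. Vwf, the clotting factor of endothelial granules, had 5.15, 9.58 and 12.3 FPKM in cKO females against 3.75, 3.93 and 4.77 FPKM in control females. Subtraction left 0.604, 0 and 0 in cKO females against 0.499, 0.743 and 0.365 in control females.

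Of the pericyte genes, Rgs5, a regulator of G protein signalling, was the most abundant. It had 22.7, 19.9 and 19.9 FPKM in cKO females against 24.3, 22.0 and 21.7 FPKM in control females, and 19.9, 20.02 and 21.9 FPKM in cKO males against 20.4, 21.9 and 25.8 FPKM in control males. After subtraction and scaling it stood at 18.2, 22.2 and 22.5 in cKO females against 18.7, 16.7 and 17.6 in control females, so the higher group depended on the scale. Rgs5 differed by 0.24 ± 0.12 on the log2 scale in females (limma, adjusted p = 0.21) and -0.13 ± 0.12 in males.

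Pdgfrb, the platelet-derived growth factor receptor of pericytes, had 1.74, 3.15 and 2.98 FPKM in cKO females against 3.07, 3.03 and 2.38 FPKM in control females. It had 2.07, 2.29 and 1.90 FPKM in cKO males against 2.15, 1.68 and 2.44 FPKM in control males. After subtraction it stood at 1.29, 1.71 and 1.07 in cKO females against 2.50, 2.51 and 1.70 in control females, with a log2 difference of -0.56 ± 0.19 (limma, adjusted p = 0.117). In males the difference was -0.03 ± 0.19. Without cKO females 2 and 3, which leaves cKO female 1 alone in its group, the female value was -0.61.

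Vtn, vitronectin, which pericytes secrete, had 12.8, 11.9 and 12.3 FPKM in cKO females against 12.7, 15.4 and 12.2 FPKM in control females. It had 11.2, 8.48 and 8.90 FPKM in cKO males against 12.4, 10.9 and 12.3 FPKM in control males. Its log2 difference in males, -0.23 ± 0.12 (unadjusted p = 0.084, limma, adjusted p = 1.0), gave the smallest p of the members in that sex, and cKO male 1 overlapped the controls. Abcc9, a subunit of potassium channels, had 2.17, 2.93 and 3.85 FPKM in cKO females against 1.88, 1.87 and 1.88 FPKM in control females. Abcc9 after subtraction averaged 1.34 ± 0.465 in cKO females and 1.11 ± 0.0457 in control females (SD, n = 3 each). Higd1b, a pericyte marker, and Notch3, a receptor of mural cells, averaged 2.36 and 1.27 FPKM in cKO females against 1.78 and 0.595 FPKM in control females. After subtraction the order turned round, to 0.684 and 0.0860 in cKO females against 0.999 and 0.272 in control females. These cKO means also include values at 0. In cKO females 1 to 3, Higd1b stood at 1.55, 0 and 0.503 and Notch3 at 0.258, 0 and 0.

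The smooth muscle genes Acta2 and Myh11 were lower in males than in females as deposited, in a contrast that did not pass the threshold between controls. Acta2 had 4.13, 4.30 and 4.08 FPKM in cKO females against 3.65, 6.37 and 4.10 FPKM in control females, and 2.15, 1.48 and 2.43 FPKM in cKO males against 1.95, 2.25 and 2.87 FPKM in control males. All 6 male libraries were below all 6 female libraries as deposited, which held for 9.3% of all genes and for 8 of 34 members (Cdh5, Tie1, Esam, Eng, Vwf, Abcc9, Acta2 and Myh11). After subtraction the sexes overlapped for Acta2, at 1.65 in cKO female 3 and 2.12 in control male 3. They also overlapped for Myh11, at 1.22 in cKO female 3 and 1.61 in control male 3. Subtracted Tie1, Eng and Vwf were at 0 in cKO females 2 and 3. Myh11, the smooth muscle myosin, had 3.05, 3.27 and 4.33 FPKM in cKO females against 3.04, 4.04 and 2.99 FPKM in control females. It had 1.56, 1.97 and 1.57 FPKM in cKO males against 2.07, 1.504 and 2.22 FPKM in control males. The cKO effects were -0.41 ± 0.27 in females and -0.25 ± 0.27 in males for Acta2, and -0.37 ± 0.22 and -0.14 ± 0.22 for Myh11 (log2, SE, 0 called). Tagln, transgelin, which was not tested, had 1.75, 2.13 and 2.12 FPKM in cKO females against 1.57, 2.75 and 1.49 FPKM in control females.

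Control males and control females were then compared. Among the tested members 0 of 24 were called, while 11.7% of all genes tested were called (1768 of 15055), and 1 member had an unadjusted p below 0.05, against 26.5% of all genes. The median log2 difference of the members, males minus females, was 0.00, against -0.07 over all genes, with 12 positive and 12 negative. Acta2 after subtraction stood at 1.36, 1.74 and 2.12 in control males against 2.44, 4.39 and 2.65 in control females, a log2 difference of -0.69 ± 0.27 (limma, adjusted p = 0.136). Myh11 stood at 1.11, 1.14 and 1.61 in control males against 1.73, 2.73 and 1.56 in control females, a difference of -0.47 ± 0.22 (adjusted p = 0.208). Itm2a stood at 13.03, 12.98 and 13.8 in control males against 12.2, 12.2 and 11.2 in control females, a difference of 0.16 ± 0.10 (adjusted p = 0.353). As deposited, every control male library was below every control female library for 14 of 34 members, against 50.3% of all genes, and above for 0, against 7.44%. After subtraction this held for 5 of 24 members below (27.5% of all genes tested), Kdr, Pecam1, Cdh5, Esam and Acta2, and for 2 above (21% of all genes tested), Itm2a and Mfsd2a.

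The direction of a member as deposited went with its level. The 6 members with a control male mean under 1 FPKM had a median log2 ratio, cKO over control, of 0.77 in females and 0.14 in males, and all 6 were higher in cKO females. The 14 members from 1 to 5 FPKM had medians of 0.35 in females and 0.05 in males, and the 14 at 5 FPKM or more had -0.12 in females and -0.05 in males. Background came to a median of 111% of the coverage of the lowest members in cKO females, 59.1% of the middle ones and 23.6% of the highest. As deposited, every cKO female library was above every control female library for 5 of 34 members (Ly6c1, Ly6a, Vwf, Abcc9 and Foxq1), against 16.2% of all genes. After subtraction it was so for 2 of 24 (Kdr and Ly6a), against 10.2%. Subtraction left 9 members at 0 in cKO female 2 and 9 in cKO female 3, 1 in control female 3 and 0 in each of the other 9 libraries. The part of background in these ratios was not tested beyond these values.

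**Figure D4:**
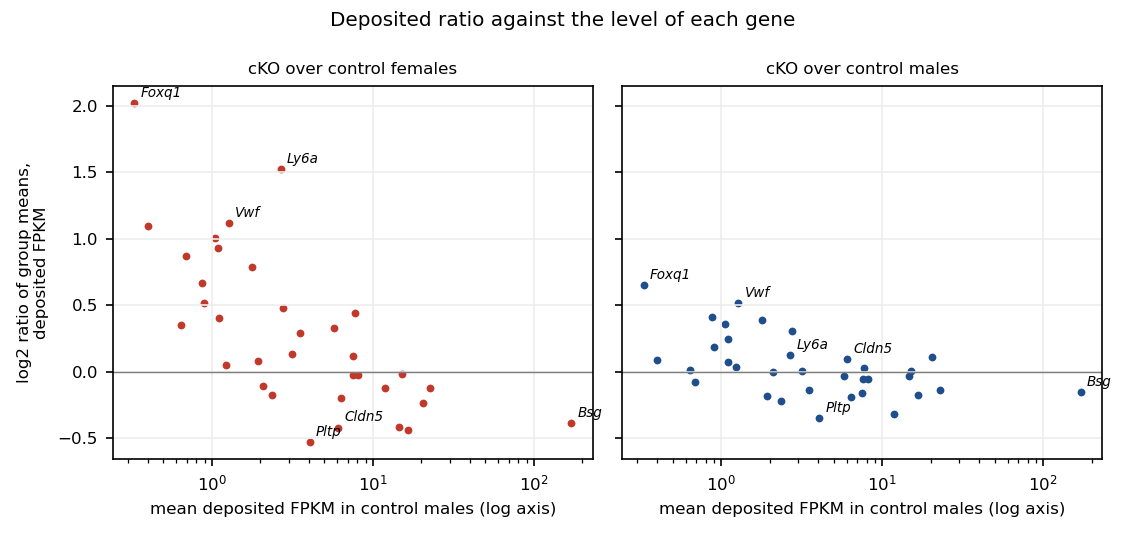
Log2 ratio of mean deposited FPKM, cKO over control, against mean deposited FPKM in control males (log axis) for the 34 vessel genes, in females and in males. In females the genes under 1 FPKM lie above 0 and those at 5 FPKM or more mostly below it. Female ratios run from 2.02 for Foxq1 to -0.53 for Pltp, a gene of the level from 1 to 5 FPKM. The male ratios stay between -0.35 and 0.65.

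Other genes of vessel biology, 86 in all, gave 47 that were tested and 0 called in each of the cKO comparisons (limma), with 9 at an unadjusted p below 0.05 in females (29.3% of all genes) and 0 in males (2.32%). Their median log2 difference was -0.08 in females and -0.05 in males, against 0.02 and 0.03 over all genes. The smallest p-values in females belonged to Wnt7b and Wnt7a, neural ligands that sustain the barrier through Wnt signalling. Their log2 differences were -1.52 ± 0.40 and -0.63 ± 0.18 (SE, limma, adjusted p = 0.114 each), and Wnt7b had 5.49 ± 1.59 FPKM in cKO females and 4.93 ± 0.407 FPKM in control females as deposited (SD, n = 3 each), the opposite order. Between control males and control females, 5 of the 47 were called, where 11.7% of all genes were. S1pr1, a receptor for sphingosine-1-phosphate, was higher in males by 0.38, while the semaphorin and growth factor co-receptors Nrp1 and Nrp2, the taurine carrier Slc6a6 and the lipoprotein receptor Lrp1 were lower by log2 differences of -0.65, -0.64, -0.34 and -0.54.

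Markers of other cells were examined beside these results. The summed deposited FPKM of 6 choroid plexus genes was 35.05, 44.5 and 47.7 in cKO females against 22.3, 5784 and 19.6 in control females, and 2516, 50.5 and 48.0 in cKO males against 4033, 1585 and 1321 in control males. Control female 2, the library highest in choroid plexus genes, also held the highest subtracted value of 11 of the 34 members: Acta2, Myh11, Tagln, Pdgfrb, Vtn, Emcn, Vwf, Ocln, Pltp, Slco1c1 and Bsg. Over all genes tested, control female 2 was highest for 5.07%, a share that leaves out Tagln, Emcn and Vwf, which were not tested. The other libraries rich in choroid plexus genes were control males 1 to 3 and cKO male 1. Control male 1 was highest for 1 member (3.93% of all genes tested) and control male 2 for 1 (3.85%). Control male 3 was highest for 0 (7.05%) and cKO male 1 for 0 (5.91%). The libraries cKO females 2 and 3, poor in choroid plexus genes, were highest for 5 members each. Their shares of all genes tested were 24.8% and 16.6%. Of the other libraries poor in these genes, cKO female 1, control female 1 and cKO male 3 were highest for 3 members each. Their shares were 4.26%, 9.71% and 12.4%. For cKO male 2 the count was 2 (2.72%) and for control female 3 it was 0 (3.74%). The part of choroid plexus tissue in the member values was not tested. Blood genes summed to 50.1 to 449 FPKM in cKO females against 98.9 to 146 FPKM in control females, and fibroblast and meningeal genes to 39.7 to 60.9 against 38.4 to 43.6 FPKM. Of the astrocyte, neuron, microglia, oligodendrocyte, choroid plexus, fibroblast and blood markers, 0 were called in the cKO comparisons (limma). In females 1 microglial gene had an unadjusted p below 0.05 (29.3% of all genes) and in males 1 astrocyte gene (2.32% of all genes). Between control males and control females, 3 of 6 astrocyte, 1 of 5 oligodendrocyte and 1 of 5 neuron markers were called, where 11.7% of all genes were. Of these, Aldoc, Gfap, Aqp4 and Mbp were higher and Syt1 lower in males, while 1 of the 5 neuron markers was positive. In the microglia, choroid plexus, fibroblast and blood lists 0 were called.

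Transcript assignment limits the levels of several members. A leading transcript held over 90% of the FPKM of 8 of the 34 members, and under 50% for 9 of them. Cldn5, Foxq1, Itm2a and Acta2 had a leading transcript at 100% of their FPKM. Slco1a4 had 55.3% of its FPKM on a 6-exon transcript of 622 bases and 39.0% on a 17-exon transcript of 3823 bases, and shares sequence with its relative Slco1a5. Abcb1a has a near copy in Abcb1b, listed at 3.18, 11.6 and 10.5 FPKM in cKO females against 2.92, 2.19 and 4.94 FPKM in control females.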

How the data were processed

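Total RNA of the hippocampus was isolated with a miRVANA kit, depleted of ribosomal RNA and made into libraries with the ScriptSeq Complete Gold kit, per the labels. Per the submitters' processing notes, HISAT2 2.0.4, StringTie and the build GRCm38.p6 were used. No source used here gives strand use, trimming or the annotation release. The deposited tables give FPKM per transcript. They also give coverage, the mean number of reads per base, from which mapped bases were recovered, per the file headers.

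FPKM was summed per gene. For the tests, bases assigned to a gene were divided by the union of its exons (GENCODE M21), the median of 1459 receptor genes of the library was subtracted with negative values set to 0, and libraries were scaled by median of ratios over coding genes averaging 5 or more. Only genes averaging 1 or more, and reaching 1 in 3 libraries, were tested. limma 3.58.1 (R 4.3.3, trend and robust) fitted 4 group means to log2(value + 0.5). The added 0.5 makes folds of low genes smaller, while values set to 0 by the subtraction can make them larger. The folds of low genes can therefore err in either direction. Two-sided p-values were adjusted over all genes (Benjamini-Hochberg, threshold 0.05). The fit was also run on simulated data, in which each gene had the same spread in all libraries. Those data held no differences in background or depth between libraries, so the run cannot show how the procedure handles them.

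Named with full values were the 3 members of smallest p in each comparison and the most abundant of each role; Kdr and several others were added after their values were seen. The members, lists and the subtraction were chosen with earlier results of these data known. Numbers in the sample titles repeat across genotypes and were not used as pairs: same-number deviations correlated at 0.153, -0.303 and 0.379 in females and 0.0403, -0.0969 and 0.197 in males. Alternatives covered subtraction, scaling, filter, pseudocount, background level, model options, left-out libraries and a block.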

Additional observations from a re-analysis of the deposited data

How the results depend on the processing

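The count of members called was 0 in all 5 comparisons under every alternative except without cKO female 1. Leaving out each library in turn gave 0 to 6 called members in females, 0 to 4 for the mean of both sexes, 0 to 4 for the difference between the sexes, and 0 in males and between controls. Without cKO female 1, whose loss leaves the 2 cKO females of highest background, the 6 called in females were Ly6a (1.59), Rgs5 (0.33), Egfl7 (-2.06), Pltp (-2.47), Pecam1 (-0.75) and Esam (-1.46, log2). In that fit 38.6% of all genes were called, against 0.0731% with all libraries. Of 2916 member values under alternatives, 251 had the other sign. In males the members' signs were 4 positive and 20 negative with all libraries, 12 and 12 without cKO male 2, and 14 and 12 without 4 libraries of high background, a fit added after seeing the data that called 0. The median log2 difference of the members in females was -0.49 without subtraction, -0.48 without scaling and -0.30 after quantile normalization, where the median of all genes moved to 0.31, -0.46 and -0.13. The cause was not tested. A replicate block on the sample numbers also called 0 members in each comparison, but whether the numbers pair the libraries is not known: no label says so, and same-number deviations did not correlate above 0.1 in every pair. With depth and background as they were, 10 of 34 members did not reach the filter on low values; with no filter all 34 were fitted and 0 called.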
